A study of Mus musculus with 8 samples.

Results

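The 10 genes described here encode blood group antigens, channels and adhesion proteins of the red cell surface: Rhag, Rhd, Kel, Aqp1, Xk, Ermap, Icam4, Cd47, Gypc and Cd24a. They were chosen by name, as a fixed list of red cell surface antigen and channel genes, with earlier results of these data known. All 10 were found among the 35944 genes to which the deposited transcripts were summed. RNA came from mouse buffy coat, the layer that holds white cells and platelets when blood is spun, and which here also carried red cell transcripts. The 4 libraries labelled PM2.5 (replicates 9, 17, 18 and 21) came from mice exposed for 24 weeks to fine airborne particulate matter, and the 4 labelled PBS (replicates 4, 10, 12 and 16) from phosphate-buffered saline controls over the same time. The labels give no strain, age, sex, genotype, dose, route or batch. Whether each library is its own animal is also not given, and p-values then describe only the spread among these libraries, which may be technical.

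Mature mammalian red cells have no nucleus, and the surface of the cell is made while the erythroblast and the reticulocyte still hold RNA. Many surface proteins sit in a pair of assemblies that tie the membrane to the spectrin skeleton. One is built around the anion exchanger band 3 and ankyrin and holds the Rh proteins, CD47 and ICAM4, and the other is built around protein 4.1R and holds glycophorin C, Kell and XK. In bulk RNA, fewer cells of a type and less RNA per cell cannot be told apart. CD47 and CD24 are also made by white cells, so in this tissue their transcripts need not come from red cells.

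The promoters of 5 of the genes are shown because they share a short sequence just before the RefSeq transcription start. RefSeq windows (GRCm38.p6) of 250 bases before and 50 after the start were given for 8 of the 10 genes, in 9 windows. Each is written on the strand of its gene, and capitals mark AGATAA or TGATAA, 2 forms of the letters bound by GATA factors, or their reverse complements TTATCT and TTATCA. The windows lie at chr17:40810899-40811198 (plus strand) for Rhag, chr4:134864286-134864585 (plus) for Rhd, chr6:41704276-41704575 (minus) for Kel, chr4:119189946-119190245 (minus) for Ermap and chr9:21029182-21029481 (plus) for Icam4.
Rhag: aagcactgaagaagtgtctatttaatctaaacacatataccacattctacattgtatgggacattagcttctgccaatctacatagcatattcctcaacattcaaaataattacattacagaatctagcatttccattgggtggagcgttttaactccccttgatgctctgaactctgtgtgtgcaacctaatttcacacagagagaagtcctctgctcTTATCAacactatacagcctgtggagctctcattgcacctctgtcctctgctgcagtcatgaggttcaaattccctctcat
Rhd: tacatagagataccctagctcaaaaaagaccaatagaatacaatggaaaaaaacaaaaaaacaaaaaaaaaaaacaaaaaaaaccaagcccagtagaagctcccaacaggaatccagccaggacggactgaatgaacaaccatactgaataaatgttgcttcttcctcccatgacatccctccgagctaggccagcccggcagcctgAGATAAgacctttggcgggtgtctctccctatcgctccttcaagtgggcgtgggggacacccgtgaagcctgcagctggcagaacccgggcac
Kel: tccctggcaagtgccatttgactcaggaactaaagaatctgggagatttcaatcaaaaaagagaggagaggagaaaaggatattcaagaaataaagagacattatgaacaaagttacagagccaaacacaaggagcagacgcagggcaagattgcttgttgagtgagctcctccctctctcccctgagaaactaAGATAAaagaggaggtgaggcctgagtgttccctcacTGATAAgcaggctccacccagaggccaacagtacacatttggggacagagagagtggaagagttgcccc
Ermap: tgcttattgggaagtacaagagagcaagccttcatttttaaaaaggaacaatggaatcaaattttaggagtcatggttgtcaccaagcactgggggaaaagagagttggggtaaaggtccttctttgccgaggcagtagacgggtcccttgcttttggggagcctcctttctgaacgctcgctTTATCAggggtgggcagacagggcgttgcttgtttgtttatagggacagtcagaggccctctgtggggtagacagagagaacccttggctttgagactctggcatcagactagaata
Icam4: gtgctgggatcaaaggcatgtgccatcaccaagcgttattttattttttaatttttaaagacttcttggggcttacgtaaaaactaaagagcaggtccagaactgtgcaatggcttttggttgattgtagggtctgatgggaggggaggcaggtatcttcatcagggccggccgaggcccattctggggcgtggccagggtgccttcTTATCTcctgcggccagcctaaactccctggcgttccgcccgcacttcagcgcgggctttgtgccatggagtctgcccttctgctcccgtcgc

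The first base of the match lay at position -31 in Rhag, -43 in Rhd, -67 in Ermap and -43 in Icam4, counted back from -1 at the last base before the start, and Kel held 2 matches, at -56 and -19. In the gene annotation (GENCODE M21), Icam4 begins at base 21029373, ahead of its match, so there the match lies inside the gene. The match was on the plus strand of the window in Rhd and Kel and on the minus strand in Rhag, Ermap and Icam4. Among all 32851 windows in the table, 18.6% held AGATAA or TGATAA on either strand, against 5 of the 9 windows of these genes. No window of these genes held CCACACCC on either strand, which 3.56% of all windows held. The looser CCNCNCCC, of which CCACACCC is one case, was in 4 of the 9 windows (Rhd, Aqp1, Xk and Icam4) and in 49.5% of all windows. The windows of Aqp1, Xk and Cd47 held neither AGATAA nor TGATAA. A match describes letters in these windows and not a bound site.

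The libraries held 72081019 to 89032794 expected counts. The 4 haemoglobin genes took 86.7% to 88.6% of them with PM2.5 and 82.3% to 87.9% with PBS, which left 9637639 to 12752766 counts per library for all other genes. TMM factors, which scale the libraries to a common set of genes, ran from 0.638 (PM2.5 replicate 18) to 1.52 (PBS replicate 4). PM2.5 replicates 17 and 18 stood apart from the other 6 libraries in brain-expressed genes. Camk2a had 78 and 97 counts in these libraries and at most 4 in any other, Snap25 had 29 in each and at most 3, and Slc1a2 had 55 and 59 and at most 10. Over all 9 brain genes listed, the summed FPKM was 22.4 to 73.3 with PM2.5 and 32.7 to 78.2 with PBS. Nrgn and Mbp, the more abundant ones, were counted in every library. The sum mostly follows Nrgn, which held 5496 of 6849 summed counts in PM2.5 replicate 9 and 1797 of 2693 in replicate 17. The cell of origin of Nrgn was not tested, and the sum is not read as a measure of brain RNA. Of the 9 genes 4 were tested, all with positive log2 fold changes and none past the test. Results are therefore also given without replicates 17 and 18, and the part of these transcripts in the results was not tested.

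The white cell gene Ptprc, which encodes CD45, had 1877 to 3249 counts with PM2.5 and 2977 to 5177 with PBS. Red cell transcripts were present through haemoglobin, with the shares given above. Markers of other cell types differed between the groups as follows. B cell markers had 0 of 7 log2 fold changes positive (median -0.46, and -1.05 with scaling to library totals), and Ebf1 and Blk fell (edgeR adjusted p = 0.0068 and 0.0445), with a summed level of 28.3 to 35.6 CPM with PM2.5 and 33.4 to 53.2 with PBS. The call of Ebf1 was kept without each of the 8 libraries in turn, and that of Blk in 1 of these 8 fits. Neutrophil markers were at 24.9 to 48.7 CPM with PM2.5 and 12.1 to 24.4 with PBS. All 5 tested had positive log2 fold changes (median 0.95, and 0.39 with scaling to totals), S100a8, Mmp9 and Cxcr2 rose with TMM but did not pass with scaling to totals. Without single libraries, S100a8 and Mmp9 each passed in 3 of 8 fits and Cxcr2 in 2 of 8. Ly6g, a defining neutrophil marker that was not tested, was at 0 in at least 1 library. Of the 5 monocyte markers all were positive (median 0.57, but -0.03 with scaling to totals) and Ccr2 rose, with summed levels of 16.2 to 27.9 CPM with PM2.5 and 10.9 to 16.7 with PBS. T cell markers (6.81 to 8.94 CPM with PM2.5, 4.62 to 8.72 with PBS) and platelet markers (444.8 to 739.2 with PM2.5, 370.2 to 655.1 with PBS) had no gene past the test. The part of these cell types in the levels of the surface genes was not tested.

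Levels per transcript length spanned more than 3 orders of magnitude. On the FPKM scale, which is scaled for transcript length and library size and was summed over the transcripts of a gene, Cd24a averaged 806 ± 64.6 (SD over the 8 libraries) and ranked 23 of 35944 genes. CD24 is a small glycoprotein on a lipid anchor, known in the mouse as heat stable antigen. Cd47, the second, averaged 28.6 ± 6.31 FPKM. Cd24a was above Cd47, and Cd47 above Rhag, in all 8 libraries with ranges that did not overlap. A cluster of 4 genes followed. Rhag averaged 9.06 ± 1.53, Kel 7.86 ± 1.60, Rhd 7.33 ± 2.13 and Aqp1 5.71 ± 1.87 FPKM, and neighbours in this order overlapped in range. Rhag was above Kel in 8 of 8 libraries, by a ratio of means of 1.15, while Kel was above Rhd in 6 of 8 and Rhd above Aqp1 in 6 of 8, so the order among Kel, Rhd and Aqp1 did not hold beyond their spread. Gypc (2.64 ± 0.728 FPKM) was below Aqp1 in all 8 libraries without overlap, Ermap (1.44 ± 0.380) was below Gypc in all 8 with overlapping ranges, and Xk (0.499 ± 0.0885) was below Ermap in all 8 without overlap. Icam4 was last, at 0.334 ± 0.112 FPKM, below Xk in 7 of 8 libraries. The genes of the Kell and XK proteins, which are joined by a disulfide bond at the surface, were thus at 7.86 and 0.499 FPKM.

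**Figure D1:**
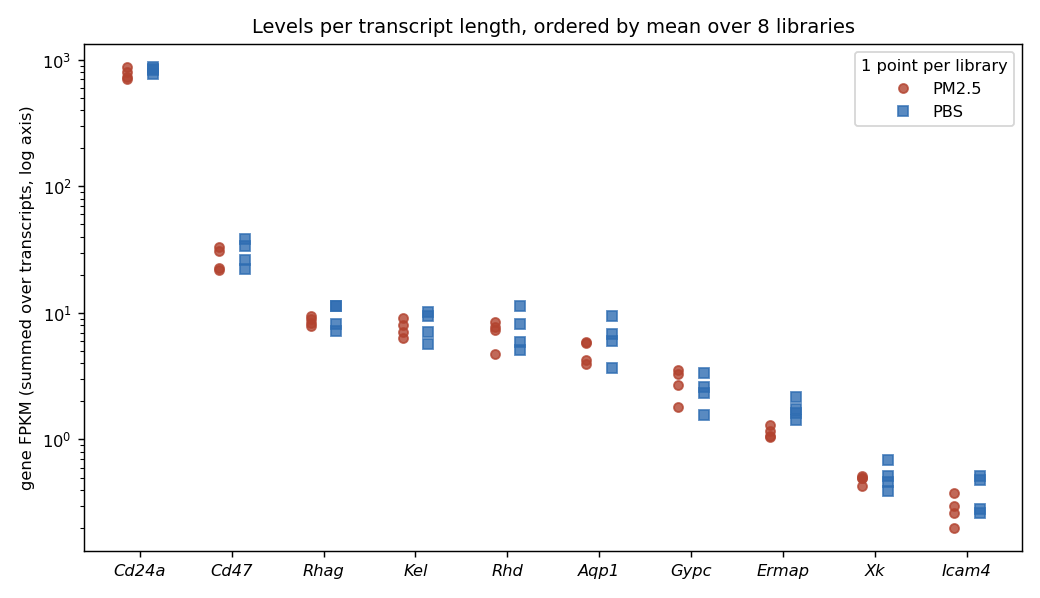
Gene level in FPKM (summed over transcripts, log axis) of the 10 genes in order of their mean over 8 libraries; each point is 1 library, circles PM2.5 and squares PBS. Cd24a, at 699.6 to 877.8 FPKM, stands above all others, and Icam4, at 0.20 to 0.51 FPKM, is lowest.

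The comparison between exposed and control mice was made on expected counts of all 10361 genes that passed the filter on low counts, which all 10 surface genes did, with edgeR's quasi-likelihood test. Levels in this comparison are CPM, counts scaled to a common size of the TMM-adjusted library, haemoglobin included. Of the 10 genes, 1 (Gypc) rose past adjusted p 0.05 and 0 fell, where over all genes tested 1.6% were called, 0.463% higher and 1.14% lower. The log2 fold change, PM2.5 over PBS, was positive in 9 of the 10, against 54.3% of all genes tested, and the median of the 10 was 0.43 against 0.04 over all genes. An unadjusted p under 0.05 was reached by 5 of the 10 and by 18.1% of all genes. PM2.5 and PBS libraries did not overlap on CPM in 2 of the 10 (Gypc and Cd47), against 9.65% of all genes. The sign of most of these values depends on the scaling. With libraries scaled to their totals, 1 of 10 was positive, the median of the 10 was -0.16 and that of all genes -0.52, and relative to the median of all genes 9 of 10 were positive under both scalings. Without PM2.5 replicates 17 and 18 the median of the 10 was 0.16, with 8 positive and 0 past the test. Without replicates 9 and 21, which removes as many libraries, it was 0.58 with 10 positive and 0 past the test. By gene, these fits in turn gave log2 fold changes of 0.66 and 0.57 (Gypc), 0.35 and 0.68 (Kel) and 0.08 and 0.86 (Xk). In the same order, values were 0.12 and 0.65 (Rhag), 0.33 and 0.58 (Rhd), 0.30 and 0.45 (Cd47) and -0.23 and 0.51 (Icam4). Aqp1 was at 0.15 and 0.31, Ermap at -0.37 and 0.20 and Cd24a at 0.17 and 0.64.

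**Figure D2:**
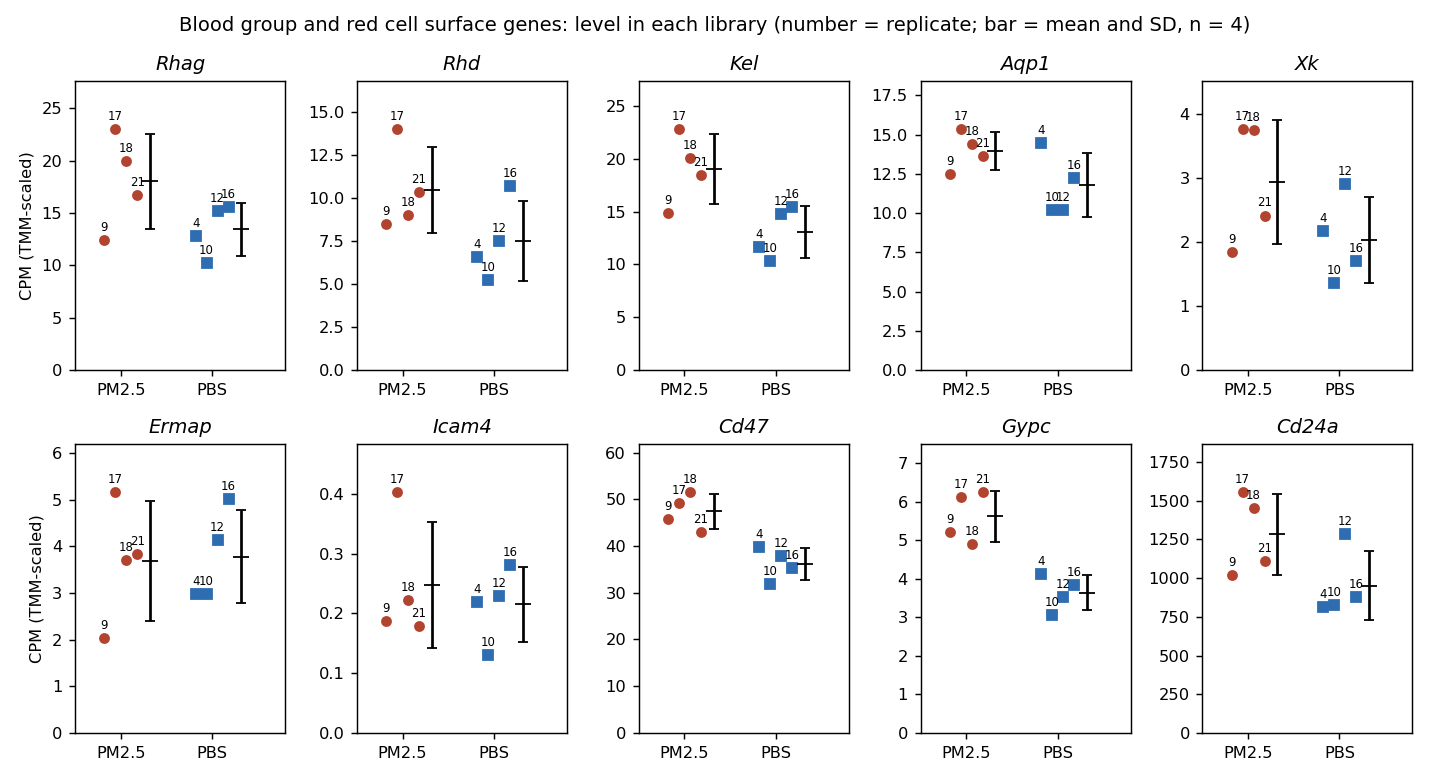
CPM (TMM-scaled, linear axes from 0) of each gene in each library, with the replicate number beside each point and the mean and SD (n = 4) as a bar; PM2.5 circles stand left of PBS squares. All 4 PM2.5 libraries lie above all 4 PBS libraries for Gypc and Cd47, and the groups overlap for the other 8 genes.

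Gypc encodes glycophorin C, carrier of the Gerbich antigens in humans, which binds protein 4.1R and anchors the membrane to the skeleton (chromosome 18, 32528322 to 32560034, minus strand, GRCm38). Gypc was at 5.22, 6.12, 4.90 and 6.26 CPM in PM2.5 replicates 9, 17, 18 and 21, against 4.12, 3.07, 3.54 and 3.83 CPM in PBS replicates 4, 10, 12 and 16. Each PM2.5 library was above each PBS library. The means were 5.62 ± 0.667 in PM2.5 libraries and 3.64 ± 0.451 in PBS libraries (SD, n = 4 each), a log2 fold change of 0.63 (SE 0.154, edgeR adjusted p = 0.0487), just inside the threshold. The call was lost whichever single library was left out, with log2 fold changes of 0.52 to 0.69 and adjusted p = 0.0641 to 0.234. Without PM2.5 replicates 17 and 18 together the log2 fold change was 0.66 (edgeR adjusted p = 0.196). Without replicates 9 and 21 together it was 0.57 (edgeR adjusted p = 0.126). With haemoglobin removed before scaling the adjusted p was 0.0539, and with scaling to library totals the log2 fold change was 0.05 (adjusted p = 0.91). DESeq2, which called 4.43% of its genes, called Gypc (0.62, adjusted p = 0.0060). On deposited FPKM the groups overlapped, at 1.79 to 3.55 with PM2.5 and 1.56 to 3.32 with PBS.

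The other genes of the junctional assembly are Kel and Xk. Kel encodes the Kell glycoprotein, a zinc endopeptidase of the cell surface (chromosome 6, 41686330 to 41704339, minus strand). Kel was at 14.9, 22.8, 20.04 and 18.5 CPM in PM2.5 replicates 9, 17, 18 and 21, against 11.7, 10.4, 14.8 and 15.5 CPM in PBS replicates 4, 10, 12 and 16. Of the PM2.5 libraries 3 were above every PBS library and replicate 9 fell among them. Means were 19.1 ± 3.29 in PM2.5 libraries and 13.1 ± 2.45 in PBS libraries (SD, n = 4 each), a log2 fold change of 0.54 (SE 0.191, edgeR adjusted p = 0.16). Without PM2.5 replicates 17 and 18 this was 0.35 (adjusted p = 0.608). Xk encodes the membrane protein whose loss in humans gives the McLeod red cell type (chromosome X, 9272756 to 9313250, plus strand). Xk was at 1.84, 3.76, 3.74 and 2.41 CPM in PM2.5 replicates 9, 17, 18 and 21, against 2.17, 1.36, 2.90 and 1.70 CPM in PBS replicates 4, 10, 12 and 16. PM2.5 replicates 17 and 18 were the highest of all, and replicate 9 was below 2 of the PBS libraries. The log2 fold change of Xk was 0.53 (SE 0.244, edgeR adjusted p = 0.264), and 0.08 (adjusted p = 0.947) without those 2 libraries and 0.34 without PBS replicate 10.

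Rhag and Rhd form the Rh complex with CD47 and ICAM4. Rhag encodes the Rh-associated glycoprotein, a membrane channel protein of the ammonium transporter family (chromosome 17, 40811126 to 40840754, plus strand). Rhag was at 12.4, 23.0, 20.003 and 16.7 CPM in PM2.5 replicates 9, 17, 18 and 21, against 12.8, 10.2, 15.2 and 15.6 CPM in PBS replicates 4, 10, 12 and 16. Replicates 17, 18 and 21 were above every PBS library, and replicate 9 was among the PBS values. The log2 fold change was 0.42 (SE 0.207, edgeR adjusted p = 0.29), and leaving out PM2.5 replicates 17 and 18 gave 0.12 (adjusted p = 0.894). Without PBS replicate 10 it was 0.28. Rhd encodes the Rh polypeptide, the protein that carries the Rh antigens in humans (chromosome 4, 134864536 to 134896172, plus strand). Rhd was at 8.49, 13.998, 8.99 and 10.4 CPM in PM2.5 replicates 9, 17, 18 and 21, against 6.55, 5.23, 7.49 and 10.7 CPM in PBS replicates 4, 10, 12 and 16. PM2.5 replicate 17 alone was above PBS replicate 16, the highest control. The log2 fold change of Rhd was 0.48 (SE 0.217, edgeR adjusted p = 0.255), against 0.31 without PM2.5 replicate 17 and 0.30 without PBS replicate 10.

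CD47 is the signal that stops macrophages from engulfing a cell, through its receptor SIRPα (Cd47, chromosome 16, 49800533 to 49915010, plus strand). Cd47 was at 45.9, 49.2, 51.6 and 43.0 CPM in PM2.5 replicates 9, 17, 18 and 21, against 39.7, 31.9, 37.8 and 35.3 CPM in PBS replicates 4, 10, 12 and 16. All PM2.5 libraries were above all PBS libraries. Means were 47.4 ± 3.76 in PM2.5 libraries and 36.2 ± 3.39 in PBS libraries (SD, n = 4 each), a log2 fold change of 0.39 (SE 0.178) that did not pass edgeR (adjusted p = 0.258). DESeq2 gave 0.38 with an adjusted p of 0.0312, a call that edgeR made under no alternative. Scaled to library totals, the log2 fold change of Cd47 was -0.19 (adjusted p = 0.604). Icam4 encodes the adhesion protein of the Landsteiner-Wiener blood group, a ligand of integrins (chromosome 9, 21029373 to 21030595, plus strand). It had 15, 22, 12 and 15 expected counts in PM2.5 replicates 9, 17, 18 and 21, and 24, 14, 17 and 31 in PBS replicates 4, 10, 12 and 16, too few for more than a coarse comparison. An antisense gene overlaps Icam4 in the annotation, and whether counting used strand is not given in the sources used here. Its log2 fold change was 0.18 (SE 0.398, edgeR adjusted p = 0.843).

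Aqp1, Ermap and Cd24a were not placed in either assembly here. Aqp1 encodes the water channel that carries the Colton antigens in humans (chromosome 6, 55336432 to 55348555, plus strand). Aqp1 was at 12.5, 15.3, 14.4 and 13.6 CPM in PM2.5 replicates 9, 17, 18 and 21, against 14.5, 10.2, 10.2 and 12.3 CPM in PBS replicates 4, 10, 12 and 16. PBS replicate 4 was within the PM2.5 range. The log2 fold change of Aqp1 was 0.24 (SE 0.172, edgeR adjusted p = 0.461), and 0.15 without PBS replicate 10. Ermap encodes an erythroid membrane protein of the immunoglobulin superfamily, carrier of the Scianna antigens in humans (chromosome 4, 119175457 to 119190011, minus strand). Ermap was at 2.04, 5.17, 3.70 and 3.84 CPM in PM2.5 replicates 9, 17, 18 and 21, against 2.98, 2.98, 4.14 and 5.02 CPM in PBS replicates 4, 10, 12 and 16. The groups overlapped throughout, and Ermap was the gene with a negative log2 fold change (-0.04, SE 0.235, edgeR adjusted p = 0.94). With scaling to library totals Ermap was at -0.66 (edgeR unadjusted p = 0.0483, adjusted p = 0.187). It was the 1 gene of the 10 with an unadjusted p under 0.05 there, against 2735 of all 10361 genes tested. On deposited FPKM, without TMM scaling, its groups did not overlap, at 1.05 to 1.30 with PM2.5 and 1.43 to 2.16 with PBS, as for 5.9% of genes with a mean of 1 FPKM or more. Limma on log2(FPKM + 1) gave Ermap a difference of -0.34 (adjusted p = 0.295).

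Cd24a (chromosome 10, 43578284 to 43584265, plus strand) was at 1018, 1557, 1456 and 1109 CPM in PM2.5 replicates 9, 17, 18 and 21, against 810.8, 827.2, 1282 and 880.4 CPM in PBS replicates 4, 10, 12 and 16. PBS replicate 12 was well above the other controls and above 2 of the PM2.5 libraries. The means were 1285 ± 262 in PM2.5 libraries and 950.1 ± 223 in PBS libraries (SD, n = 4 each), a log2 fold change of 0.44 (SE 0.262, edgeR adjusted p = 0.381). Without PBS replicate 12 the log2 fold change of Cd24a was 0.62, and without PM2.5 replicates 17 and 18 it was 0.17 (adjusted p = 0.876). Besides red cells, Cd24a is made by B cells and neutrophils, whose marker values are given above.

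**Figure D3:**
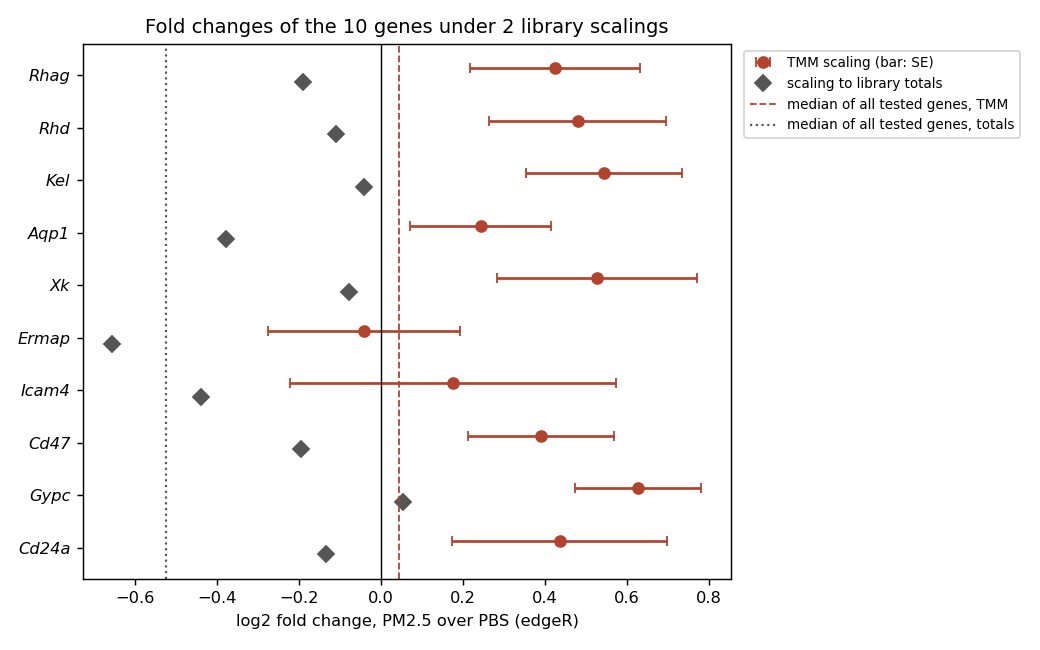
Log2 fold change, PM2.5 over PBS, of each gene with TMM scaling (circles, bar = SE) and with scaling to library totals (diamonds), beside the median of all tested genes under each scaling (dashed and dotted lines at 0.04 and -0.52). The change of scaling moves all 10 genes left by a similar amount, and Gypc is the one still above 0.

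The genes were next set against a list of other erythroid genes in the same library, a ratio that does not depend on library scaling. The cell of origin of these reference transcripts was not tested. For each gene, the log2 expected count minus the mean log2 count of 19 erythroid genes (among them Alas2, Slc4a1, Gata1 and Tal1) was compared by an exact permutation test over 70 arrangements, two-sided, with a smallest possible p of 0.0286. No gene had an adjusted p under 0.05 (adjusted p = 0.857 to 0.971 over the 10 exact permutation tests). With 10 tests adjusted together, a single gene at the smallest possible p could not pass. The test therefore could not decide whether any single gene differed from the reference. The largest difference was that of Ermap, at -0.53 (exact permutation p = 0.0857, adjusted p = 0.857), with log2 ratios of -5.48 ± 0.325 in PM2.5 libraries and -4.96 ± 0.341 in PBS libraries (SD over 4). Icam4 was at -0.27, Aqp1 at -0.20 and Gypc at 0.18. The other 6 genes differed by -0.06 to 0.09, among them Cd24a at -0.01 (3.01 ± 0.0858 with PM2.5 and 3.02 ± 0.198 with PBS) and Rhag at -0.04 (-3.16 ± 0.107 with PM2.5 and -3.11 ± 0.166 with PBS). Beside this, all 19 reference genes had positive log2 fold changes in the comparison of CPM, with a median of 0.49 and 0 past the test, and a median of -0.09 when libraries were scaled to totals. Their summed FPKM was 14701 to 15614 with PM2.5 and 15457 to 18118 with PBS.

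**Figure D4:**
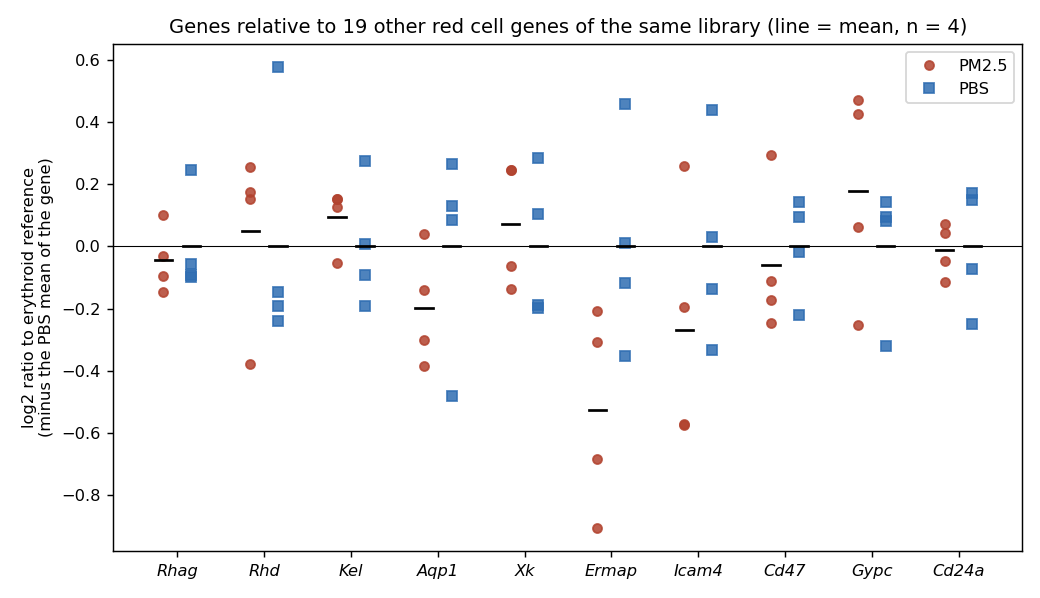
Log2 ratio of each gene to the mean of 19 listed erythroid genes in the same library, shown as the difference from the gene's PBS mean. Each point is 1 library and lines are group means (n = 4), PM2.5 left of PBS. The groups overlap in all genes, with Ermap showing the lowest PM2.5 mean, 0.53 below that of PBS.

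Values of the 10 genes were also compared across libraries as a description, by Pearson's r of log2 CPM over the 8 libraries, which share their scaling factors and the group difference. Kel and Rhag were the pair most alike (r = 0.95, with Kel ranked 42 among the 10360 other genes for Rhag and Rhag ranked 28 for Kel), followed by Cd24a and Xk (0.91), Kel and Rhd (0.90) and Rhag and Xk (0.88). The lowest r were those of Ermap with Cd47 (0.01) and with Gypc (0.10), while Ermap reached 0.70 with Rhag and 0.69 with Icam4. The genes nearest in pattern were Fzr1, Pck2 and Cdc34 for Rhag (r = 0.98 to 0.99), Uros, Parp11 and Oas1b for Rhd (0.97 to 0.99), and Snx15, Fhdc1 and Mpc2 for Kel (0.98 to 0.99). Among the nearest to Xk were Mtmr3 and Dcaf10 (0.98 to 0.99), to Gypc Uso1, Msrb1 and Lifr (0.98 to 0.99), to Cd24a Iscu, Slc48a1 and Ypel3 (0.99 each) and to Cd47 Rit1, Stom and Igtp (0.97 to 0.98). For Aqp1 they were Atf3, Lmo4 and Abtb1 (0.93 to 0.97), for Ermap Tstd2, Apeh and Btnl10 (0.95 to 0.96), and for Icam4 Tinagl1, Mafg and Reep6 (0.94 to 0.95). None of the 3 nearest genes of any of the 10 was another of the 10.

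The table was deposited per transcript, so the transcripts behind each gene could be compared. Aqp1 and Xk had a single annotated transcript in the table, and Rhd-202, the second of Rhd, was listed at 0 in all 8 libraries. Cd47 was the most divided, with 8 of 10 transcripts at a mean of 0.1 FPKM or more. Cd47-208 (1032 bases) led on FPKM, at 7.08 ± 1.99 in PM2.5 libraries and 9.08 ± 1.15 in PBS libraries (SD, n = 4 each). Cd47-202 followed at 5.30 ± 2.71 FPKM with PM2.5 and 5.34 ± 2.30 with PBS. By expected counts Cd47-201 (5250 bases) was the largest instead, with a mean of 1642 over the 8 libraries, against 482.9 for Cd47-208. The share of Cd47-208 in the FPKM of the gene was 29.9, 29.3, 29.0 and 17.6% in PM2.5 replicates 9, 17, 18 and 21, against 23.6, 30.5, 38.6 and 31.8% in PBS replicates 4, 10, 12 and 16. PM2.5 replicate 21 was the lowest of all. For Rhag, Rhag-201 (2339 bases) and Rhag-203 (1590 bases) were both abundant, and Rhag-201 took 51.3 ± 9.24% with PM2.5 and 59.1 ± 4.17% with PBS. Cd24a-201 (1816 bases) took 83.0 ± 3.88% of Cd24a with PM2.5 and 85.5 ± 3.28% with PBS, with the shorter Cd24a-202 (743 bases) at 10.6 to 22.0% over the libraries.

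Kel-201 (2530 bases) held 89.9 ± 1.83% of the FPKM of Kel with PM2.5 and 88.0 ± 9.36% with PBS, and Ermap-206 (4551 bases) 41.0 ± 14.8% of Ermap with PM2.5 and 41.2 ± 9.54% with PBS. Ermap-203, a retained intron transcript in the annotation, was the second of that gene at 6.36 to 27.1%. Gypc-203 (2180 bases) held 81.1, 69.9, 91.1 and 100% of Gypc in PM2.5 replicates 9, 17, 18 and 21, against 97.6, 87.9, 100 and 100% in PBS replicates 4, 10, 12 and 16. The short Gypc-201 (612 bases) was listed at 0.57, 0.72 and 0.16 FPKM in PM2.5 replicates 9, 17 and 18 and at 0.10 FPKM in PBS replicate 10, and at 0 in the other 4 libraries. No leading share differed past its exact permutation test (two-sided, 70 arrangements, adjusted over the 6 genes with 2 or more transcripts at 0.1 FPKM; adjusted p = 0.6 for Rhag, Cd47, Gypc and Cd24a and 1.0 for Kel and Ermap). After adjustment over these 6 genes, a single share at the smallest possible p could not pass. The test therefore could not decide whether any single share differed. The differences, in percentage points, were -10.8 for Gypc, -7.77 for Rhag, -4.68 for Cd47, -2.53 for Cd24a, 1.86 for Kel and -0.22 for Ermap. As shares of expected counts in place of FPKM, for the same transcripts, they were -1.63 for Gypc, -6.87 for Rhag, -2.22 for Cd47 and -0.93 for Cd24a. The FPKM share of Gypc-203 differed by -5.64 without PM2.5 replicate 17, that of Cd47-208 by -1.72 without PM2.5 replicate 21 and -2.20 without PBS replicate 12, and that of Cd24a-201 by -0.86 without PM2.5 replicate 9 and -1.21 without PBS replicate 4. Short reads shared by overlapping transcripts were divided between them by an estimate, so shares carry that uncertainty.

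**Figure D5:**
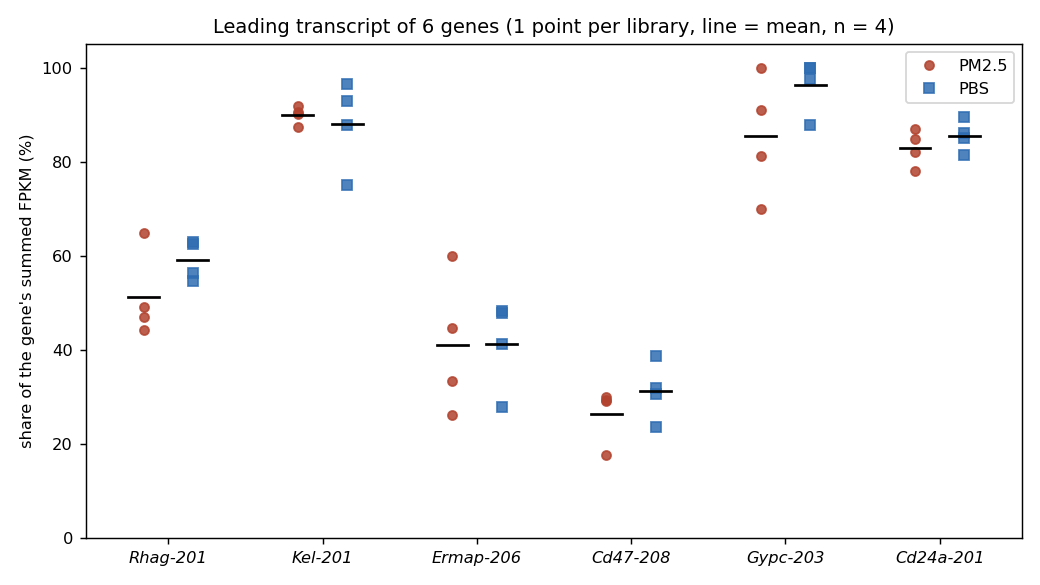
Share (percent, axis from 0) of the gene's summed FPKM taken by its leading transcript in 6 genes; each point is 1 library and lines are group means (n = 4), PM2.5 left of PBS. The Cd47-208 share of PM2.5 replicate 21, at 17.6%, is below all other libraries, and the groups overlap in all 6 genes.

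Partners of these proteins were read from lists of genes, which were chosen with earlier results of these data known. Of 8 partners in the Rh and band 3 complex, all had positive log2 fold changes, with a median of 0.52 and 0 past the test, under TMM scaling, and a median of -0.06 with scaling to totals. Among those with the smallest p were Epb42, which encodes protein 4.2 (0.59, SE 0.234, edgeR adjusted p = 0.209), and the ankyrin gene Ank1 (0.63, SE 0.255, adjusted p = 0.214). Of 8 partners at the 4.1R junction all were positive (median 0.36, and -0.26 with scaling to totals) and 0 passed, with Tmod1, which caps actin filaments, at 0.65 (SE 0.205, adjusted p = 0.12), Stom, the stomatin gene, at 0.45 (SE 0.193, adjusted p = 0.236) and Mpp1, which binds glycophorin C and 4.1R, at 0.53 (SE 0.244, adjusted p = 0.259). Of 30 other blood group antigen and carrier genes 25 were tested, 19 were positive (median 0.27, and -0.30 with scaling to totals) and 0 passed. The smallest p among these were those of Ackr1, the Duffy chemokine receptor (0.66, SE 0.224, adjusted p = 0.147), Slc14a1, the Kidd urea transporter (0.57, SE 0.206, adjusted p = 0.169), and Cd55, a complement regulator (-0.42, SE 0.166, adjusted p = 0.208). Rhbg and Rhcg, Rh family genes known from kidney and other epithelia, were below the filter and at 0 in at least 1 library.

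Of 8 enzymes that build carbohydrate blood group antigens, only Gcnt2 passed the filter on low counts, and it rose. Gcnt2 encodes the branching enzyme that makes the I antigen. Gcnt2 was at 4.72, 4.40, 3.48 and 3.36 CPM in PM2.5 replicates 9, 17, 18 and 21, against 2.29, 1.93, 1.78 and 2.21 CPM in PBS replicates 4, 10, 12 and 16. Every PM2.5 library was above every PBS library. Means were 3.99 ± 0.671 in PM2.5 libraries and 2.05 ± 0.236 in PBS libraries (SD, n = 4 each), a log2 fold change of 0.96 (SE 0.163, edgeR adjusted p = 0.00997). Its call was lost without PBS replicate 10 (adjusted p = 0.0546), without PM2.5 replicates 17 and 18 together (0.0775) and with scaling to library totals (0.38, adjusted p = 0.44), and it was made under the other 12 alternatives that tested it. Gcnt2 is not a red cell gene alone, and its cell of origin was not tested.

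Of 10 genes for ligands and partners of CD47 and CD24, 6 were positive (median 0.12, and -0.43 with scaling to totals) and 0 passed. Sirpa, the receptor of CD47 on myeloid cells, was at 4.68, 6.06, 4.27 and 6.40 CPM in PM2.5 replicates 9, 17, 18 and 21, against 3.53, 2.84, 3.13 and 4.22 CPM in PBS replicates 4, 10, 12 and 16. Its groups did not overlap, and its log2 fold change of 0.64 (SE 0.175) did not pass edgeR (adjusted p = 0.074). Sirpa passed in 3 of 17 alternatives, which were no filter on low counts (adjusted p = 0.0182), leaving out PBS replicate 16 (0.0477) and DESeq2 (0.0359). Siglecg, a B cell lectin receptor for CD24, was at -0.53 (SE 0.192, adjusted p = 0.169) and the integrin gene Itgb2 at 0.35 (SE 0.183, adjusted p = 0.313). Values of neutrophil, monocyte and B cell markers are given above, and their part in Sirpa and Siglecg was not tested.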

How the data were processed

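Libraries of total RNA from 8 buffy coat samples kept strand through dUTP, per the labels' protocols. Tools named are the aligner HISAT2 2.0.1, the trimmer cutadapt 1.9.1 and bcl2fastq 2.17.1.14, with build GRCm38, per the submitters' processing notes. The counting tool is not given in the sources used here. The authors deposited 1 table of 118783 Ensembl transcripts with expected counts and FPKM, per the file headers. Expected counts are estimates (24.5% not whole) and were read as not normalized. FPKM was read by its usual meaning, as scaled by transcript length and library size.

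Of the 118783 transcripts, 116710 had a match in GENCODE M21, which gave sums for 35944 genes. The 2073 unmatched transcripts held 0.0266% to 0.0532% of the counts and were left out. Gene counts were rounded to whole numbers, and the test was edgeR 4.0.16 under R 4.3.3 (quasi-likelihood, filterByExpr with a minimum count of 10 and total of 15, TMM, Benjamini-Hochberg over 10361 genes, threshold 0.05), since the groups share no replicate numbers without a block. The SE is the log2 fold change over the square root of F, an approximation. Ratios to erythroid genes used counts plus 0.5. The list of 20 reference genes held 19 with a match. Ca2 was read under its symbol Car2. Alternatives covered scaling, filter, DESeq2 1.42.0, limma 3.58.1 with a trend on log2(FPKM + 1) or + 0.1 where at least 4 libraries reached 1 FPKM, and libraries left out. No pair of libraries within a group agreed within sampling noise by chi-square, and pairs across the groups were not compared. The test was checked on simulated data with known changes, where recovery was required only of the largest change. Recovery of changes as small as those of the 10 genes is not reported here. Depth was 72081019 to 89032794 counts per library, so genes with few counts, such as Icam4, have low precision.

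All 10 genes are named. Of each list, genes past the threshold are named, or else up to 3 with the smallest p, and the 3 nearest genes by r. The genes and lists were chosen with earlier results of these data known. Ptprc, Camk2a, Snap25, Slc1a2, Nrgn, Mbp, Ly6g, Rhbg and Rhcg were named after their values were seen. A few genes this rule would name are not reported here.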

Additional observations from a re-analysis of the deposited data

Results flagged for a closer look

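In 52 groups of 4 libraries looked at, 7 had a highest or lowest library whose gap to the next, as a share of the range of the group, exceeded Dixon's critical value for 4 samples; chance flags about 1 in 20 groups. Cd24a was at 1282 CPM (TMM) in PBS replicate 12, against 810.8 to 880.4 in the other PBS libraries. The share of Cd47-208 was 17.6% in PM2.5 replicate 21, against 29.0% to 29.9% in the other PM2.5 libraries. On the log2 ratio to erythroid genes, PBS replicate 16 was highest for Rhag (-2.87, against -3.21 to -3.17 in the other controls) and for Rhd (-3.41, against -4.22 to -4.13). PM2.5 replicate 18 was lowest for Rhd (-4.36, against -3.83 to -3.73) and for Kel (-3.21, against -3.03 to -3.00). PBS replicate 12 was lowest for Gypc (-5.30, against -4.90 to -4.84).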

How the results depend on the processing

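No paired analysis was possible because the groups share no replicate numbers in the labels. Over all genes, edgeR called 166, against 483 with scaling to library totals, 624 with no filter on low counts, 365 by DESeq2, 0 by limma on log2(FPKM + 1) (716 at an unadjusted p under 0.05), 0 with + 0.1 (695), 8 without PM2.5 replicates 17 and 18, and 31 to 192 without single libraries (55 without PM2.5 replicate 17, 69 without 18, 85 without 21, 87 without PBS replicate 4 and 31 without 10). Of the 10 surface genes 1 passed, and 1 also with median ratio scaling and with no filter. The number was 2 by DESeq2, and 0 with scaling to totals, with haemoglobin removed, by limma, without each single library (0 to 0), without PM2.5 replicates 17 and 18 and without 9 and 21. The cause was not tested.

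With scaling to totals the sign turned for Rhag (-0.19), Rhd (-0.11), Kel (-0.043), Aqp1 (-0.38), Xk (-0.079), Icam4 (-0.44), Cd47 (-0.19) and Cd24a (-0.14). It turned by limma on log2(FPKM + 1) and + 0.1 for Rhag (-0.10, -0.11), Rhd (-0.064, -0.069), Kel (-0.060, -0.065), Aqp1 (-0.28, -0.31), Cd47 (-0.14, -0.14) and Cd24a (-0.10, -0.10); FPKM is itself scaled to library totals. Ermap turned to 0.20 without PM2.5 replicates 9 and 21 and ran from -0.25 to 0.13 without single libraries. Icam4 was at -0.23 without PM2.5 replicates 17 and 18 and at -0.14 to 0.33 without single libraries.

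With haemoglobin as the reference in place of erythroid genes the sign turned for Rhd (-0.11), Kel (-0.066) and Xk (-0.088). Without single libraries the ratio ran from -0.090 to 0.040 for Rhag, -0.029 to 0.24 for Rhd, -0.18 to 0.0037 for Cd47 and -0.095 to 0.045 for Cd24a. With shares of expected counts the difference was -0.089 points for Kel and 0.039 for Ermap, and without single libraries it ran from -2.46 to 4.67 for Kel and -6.54 to 4.74 for Ermap. No ratio or share had an adjusted p under 0.05 under the alternatives run (exact permutation tests). The lowest adjusted p of these exact permutation tests was 0.571 for a ratio and 0.171 for a share. That share was the one of Rhag-201, which differed by -12.3 points without PM2.5 replicate 21. In none of these tests could a single gene at the smallest possible p pass after adjustment.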
